A study of Rattus norvegicus with 66 samples.

Results

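The clustered protocadherins are a family of cadherin-like cell surface proteins encoded side by side in an alpha, a beta and a gamma gene cluster. Members were the entries of the gene table named Pcdha, Pcdhac, Pcdhb, Pcdhga, Pcdhgb or Pcdhgc followed by a number that had at least 1 count, and 49 of the 37777 genes met this rule. They comprised 15 alpha, 18 beta and 16 gamma genes. Pcdhgc4 was not analysed here.

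RNA of the dorsal hippocampus, dissected together with a small strip of adjacent neocortex, was sequenced from 64 Long Evans rat pups on postnatal day (PND) 6 in 66 libraries. Dams of feeding controls (CONF) received plain soy-free chow, and in the Aroclor 1254 groups (Aro0.5 and Aro5, 0.5 and 5 mg/kg) and the bisphenol A groups (BPA0.5 and BPA5, 0.5 and 5 mg/kg) the dam took the chemical with the chow from 2 weeks before mating until the pups were sampled. Injection controls (CONSC) and the chlorpyrifos groups (CPF1 and CPF3, 1 and 3 mg/kg) came from dams given subcutaneous injections, of vehicle or of chlorpyrifos, in pregnancy and again after birth. Males numbered 4 CONF, 5 CONSC, 4 Aro0.5, 4 BPA0.5, 4 CPF1, 6 Aro5, 7 BPA5 and 7 CPF3, and females 5 CONF, 5 CONSC, 5 Aro5, 4 BPA5 and 4 CPF3. Every chemical reached the pups through the dam, and the 64 pups came from 44 litters, 18 of which gave several pups, so that littermates share 1 exposed dam. Library totals ranged from 10644138 to 86206550 counts with a median of 20740650. Library titles are written in 2 forms, called form A and form B below. In males, 9 of 10 control libraries and all 12 low-dose libraries have form A and all 20 high-dose libraries have form B, so that title form and high dose cannot be told apart in males. In control females 5 libraries have form A and the other 6 form B. What the forms stand for is not given in the sources used here. Markers of neurons (Rbfox3, Tubb3, Snap25, Map2, Syt1) and of hippocampus (Prox1, Zbtb20, Lef1, Wfs1) were counted in all 64 pups, whereas both entries of Fibcd1, a marker of hippocampal area CA1, had 0 counts in every pup. Markers of neocortex, thalamus and choroid plexus were also counted in every pup.

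As background, an alpha or gamma transcript joins 1 variable exon, which encodes the whole outer part of the protein, to constant exons that all genes of the cluster share and that encode the inner end. A beta gene has its coding sequence in 1 exon and no constant exons. A neuron uses a small, largely random set of alternate members together with C-type members (Pcdhac1, Pcdhac2, Pcdhgc3, Pcdhgc4, Pcdhgc5), whose promoters are regulated separately. The proteins form zipper-like assemblies between membranes that bear matching sets, and such matching is known to make branches of 1 neuron avoid each other and to shape dendrites, axon fields and neuron survival. Promoter choice depends on CTCF and cohesin, which bind at the promoters and bring them to a distant enhancer, and on DNA methylation by Dnmt3b and silencing by Smchd1.

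The deposited counts did not separate the genes of the alpha cluster. All 15 alpha rows carried nearly the same value, with means of 306.1 to 324.4 CPM (counts per 1000000 counts of the library), and in single pups each row stood at 0.987 to 1.10 times the cluster median. In the gamma cluster 13 of 16 rows behaved this way, with means of 676.5 to 769.5 CPM. Pcdhgc5, Pcdhga4 and Pcdhgb5 did not share the common count and had means of 167.1, 4.42 and 5.44 CPM. Such equal rows arise when reads of the constant exons are counted once for every gene that contains them, although the counting rule is not given in the sources used here. The repeats added 0.425% to the library totals in the alpha cluster and 0.816% in the gamma cluster. In each pup, the lowest of the sharing rows was therefore taken as the shared count of the cluster, and what a row held above it as the gene's own count. The lowest row was Pcdha1 in 35, Pcdhac1 in 21 and Pcdha3 in 10 libraries for alpha, and Pcdhga9 in 65 and Pcdhga11 in 1 for gamma. An own count is a lower limit of the reads on a gene's own exons, because the lowest row may hold own reads as well. Counts in which the sharing rows are replaced by their own counts and 1 shared row per cluster are called resolved counts below. The 18 beta rows showed no such sharing. CPM is not divided by exon length, so the order of the rows is not an order of transcript abundance.

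**Figure D1:**
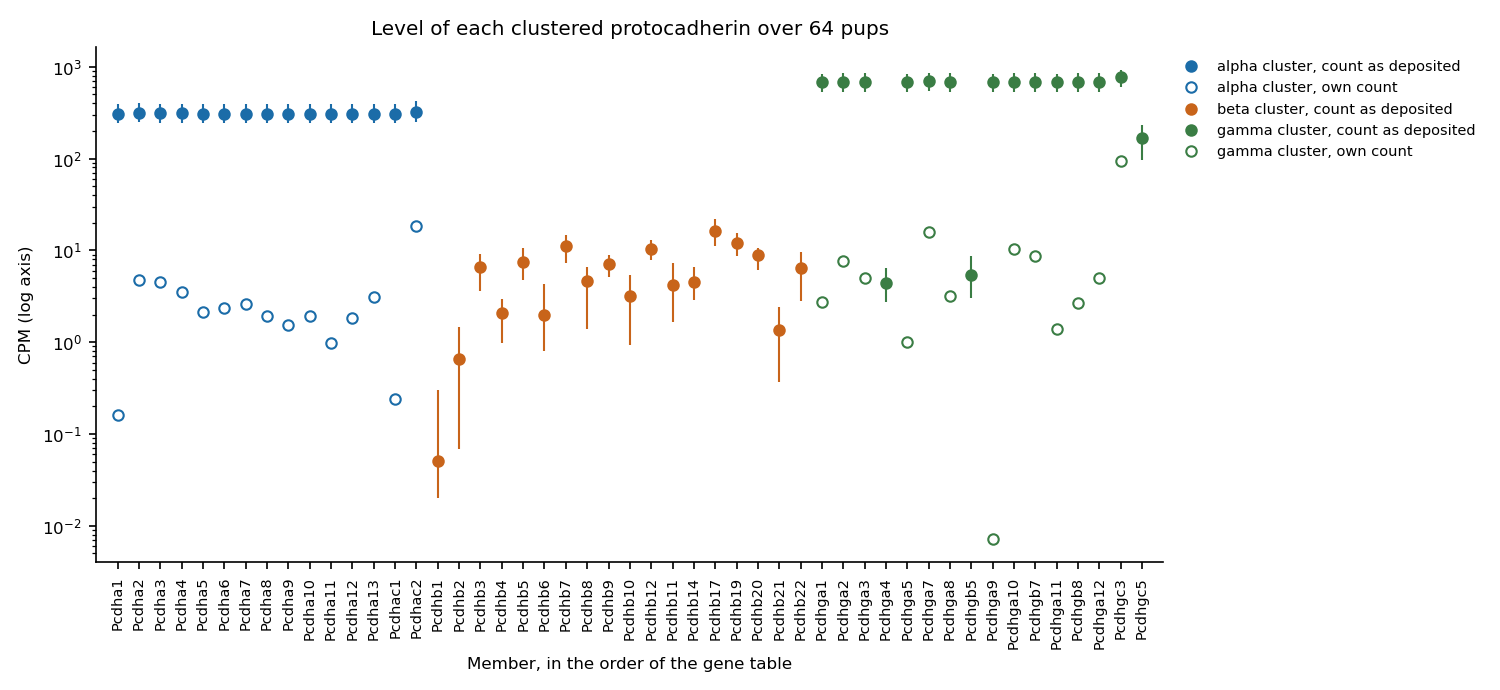
The level of each of the 49 members over 64 pups is plotted on a log axis in CPM. Filled points are the means of the counts as deposited with lines from the lowest to the highest pup (drawn no lower than 0.02), and open points are means of own counts. The filled points of the 15 alpha and of 13 gamma rows lie on 1 level each, while the open points spread from 0.0072 CPM for Pcdhga9 to 93.0 CPM for Pcdhgc3, beyond the beta members at both ends.

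The shared counts were steady over the 13 groups. The alpha shared count ranged from 277 ± 26.2 CPM in Aro5 females (SD, n = 5) to 335 ± 39.8 CPM in Aro5 males (SD, n = 6), and the gamma shared count from 644 ± 47.8 CPM in CONF males (SD, n = 4) to 749 ± 44.2 CPM in CPF3 females (SD, n = 4). The highest group mean was thus 1.21 times the lowest for alpha and 1.16 times for gamma. In these extreme groups the pups overlapped for alpha (242.4 to 313.8 CPM against 285.3 to 392.1 CPM), and for gamma the highest CONF male (694.9 CPM) stood just under the lowest CPF3 female (695.3 CPM). The summed beta level ranged from 90.1 ± 7.02 CPM in Aro0.5 males (SD, n = 4) to 120 ± 5.44 CPM in CONF females (SD, n = 5), and these groups did not overlap. Groups were picked here for their extreme means, so no test is given.

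The own counts of the alpha genes varied more between groups than the shared count. Their sum was 8.81% ± 2.05 of the shared count in Aro0.5 males (SD, n = 4) and 22.8% ± 1.88 in CONF females (SD, n = 5). It was 12.9% ± 3.73 in control males (SD, n = 9), 20.2% ± 4.30 in control females (SD, n = 10), and 19.8% ± 4.28, 17.98% ± 4.42 and 16.9% ± 3.496 in Aro5, BPA5 and CPF3 males (SD, n = 6, 7 and 7). For gamma the own sum ranged from 15.7% ± 1.82 in Aro0.5 males to 28.2% ± 2.09 in CONF females (SD, n = 4 and 5). The summed level of 4 neocortex markers (Tbr1, Cux2, Rorb, Fezf2), all with counts in every pup, is given beside these sums. It averaged 140.5 CPM in Aro0.5 males (127.3 to 175.3), 175.5 CPM in control males (120.8 to 251.9), 222.2 CPM in control females (74.9 to 372.3) and 263.1 CPM in Aro5 males (218.9 to 321.0). CPF3 males had 238.8 CPM of markers with an own alpha sum of 16.9%. Among Aro0.5, control, CPF3 and Aro5 males, markers and own alpha sums stood in the same order. Across the sexes the order differed, since BPA5 females had 210.4 CPM of markers with an own alpha sum of 20.8%. The part of the neocortical share of the tissue in the protocadherin values was not tested. Own and shared counts come from different parts of a transcript, and the part of RNA integrity in them was not tested either. In RNA of whole tissue, fewer cells that express a gene and less RNA per cell cannot be told apart.

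**Figure D2:**
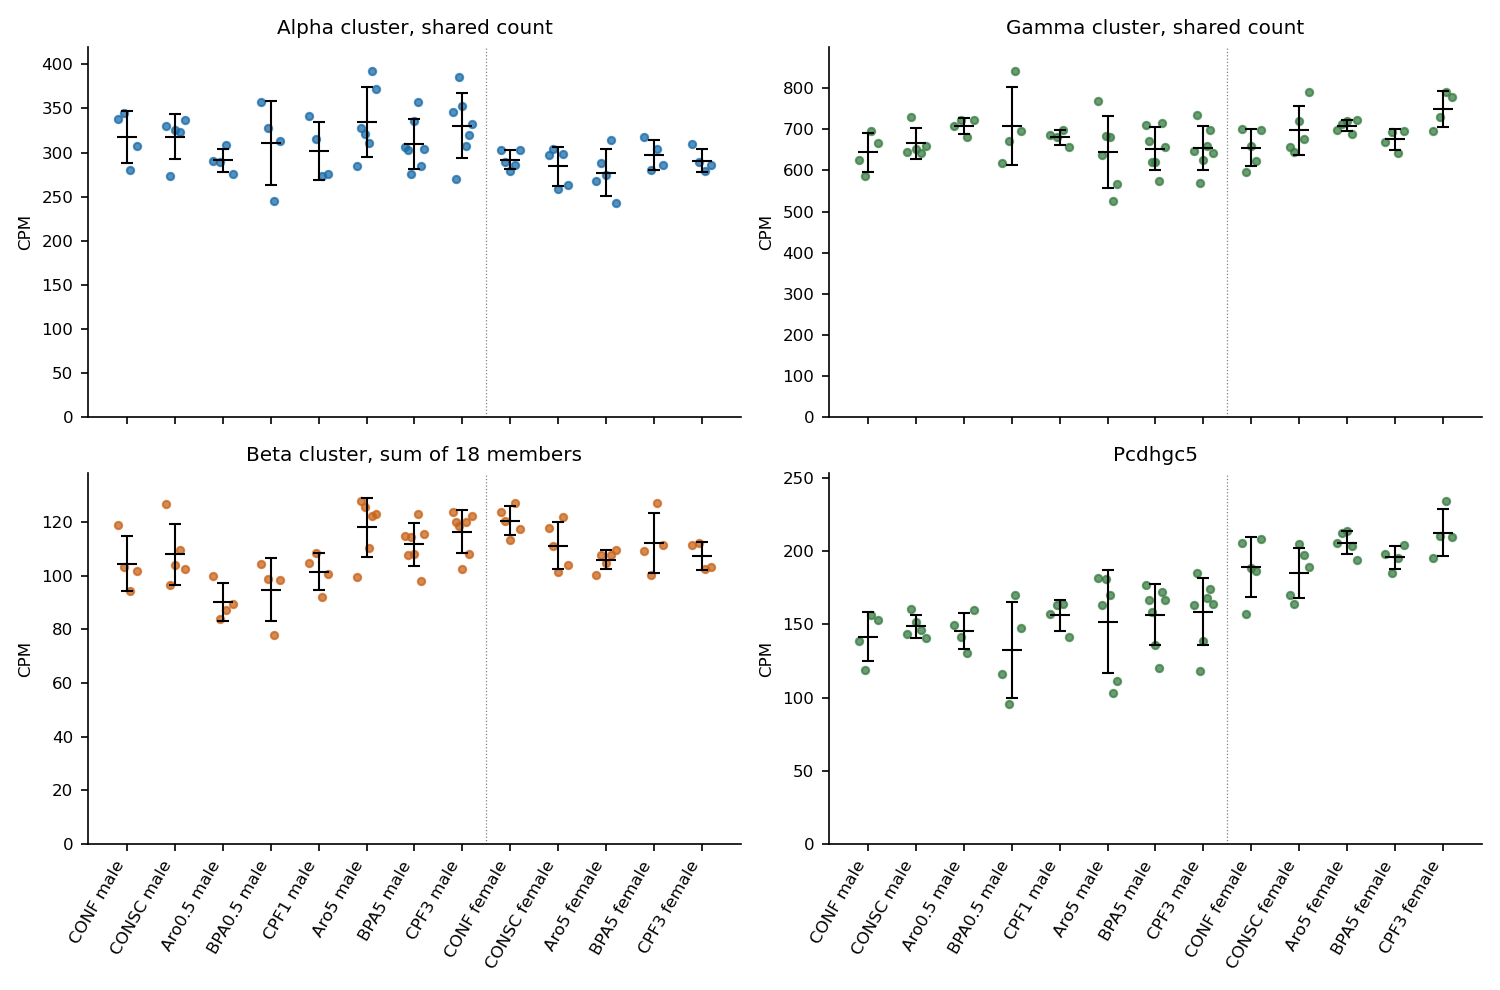
Alpha shared count, gamma shared count, summed beta level and Pcdhgc5 are plotted in CPM for each pup of the 13 groups, with black bars for mean and SD and a dotted line between males and females. The summed beta level is lowest in Aro0.5 males (mean 90.1 CPM), and Pcdhgc5 is higher in most female pups than in male pups.

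The C-type members were read from Pcdhgc5 directly and from own counts for the others. Pcdhgc5 had 1020 to 18095 counts per pup. Its group means ranged from 132 ± 32.9 CPM in BPA0.5 males (SD, n = 4; 95.8, 116, 147 and 170 CPM) to 213 ± 16.0 CPM in CPF3 females (SD, n = 4; 196, 210, 210 and 234 CPM). Pcdhgc3 had 93.0 CPM of its own on average, 12.2% of its row, and group means from 66.4 ± 9.75 CPM in Aro0.5 males to 118 ± 7.95 CPM in CPF3 females (SD, n = 4 each). Pcdhac2, which is known for the spacing of serotonergic axons, had 18.5 CPM of its own, 5.93% of its row, with group means from 11.2 ± 2.21 CPM in Aro0.5 males (SD, n = 4) to 25.0 ± 2.52 CPM in CONF females (SD, n = 5). The own count of Pcdhac1 was at or near the limit of this reading, with a mean of 0.24 CPM and a value of 0 in 23 of 64 pups.

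Among the alternate alpha genes, Pcdha3 was at 0 in some pups while its neighbours were not. Its own count was 0 in 9 of 64 pups and 18 to 519 in the other 55. Pcdha3 at 0 means that its row was the lowest alpha row of that pup. In those 9 pups the neighbours Pcdha2 and Pcdha4 stood 33 to 273 and 27 to 210 counts above the same level, and Pcdha1 stood 4 to 39 counts above it. The 9 pups were 2 of 4 CONF males, 2 of 4 BPA0.5 males, 3 of 6 Aro5 males and 2 of 5 CONF females. CONF male N2-2y was sequenced in 2 libraries, and Pcdha3 was the lowest row in both. CONF female N4-3x, also sequenced in 2 libraries, had 270 and 157 own counts of Pcdha3. Expressed as a percentage of the summed own counts of Pcdha2 and Pcdha4, the other 55 pups ranged from 20.0% to 112% with a median of 72.0%, and ordered by value no gap between neighbours exceeded 7.66 percentage points. The 9 pups came from 7 litters, 4 of which also gave a pup with Pcdha3 counts. Of the other 12 alternate alpha genes, Pcdha1 was the lowest row in many pups, and the remaining ones had own counts above 0 in every pup. Between pups of a group, Pcdha3 varied by 60.5% (coefficient of variation), where counting error alone gives 10.5%, against 25.5% and 10.2% for Pcdha2.

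**Figure D3:**
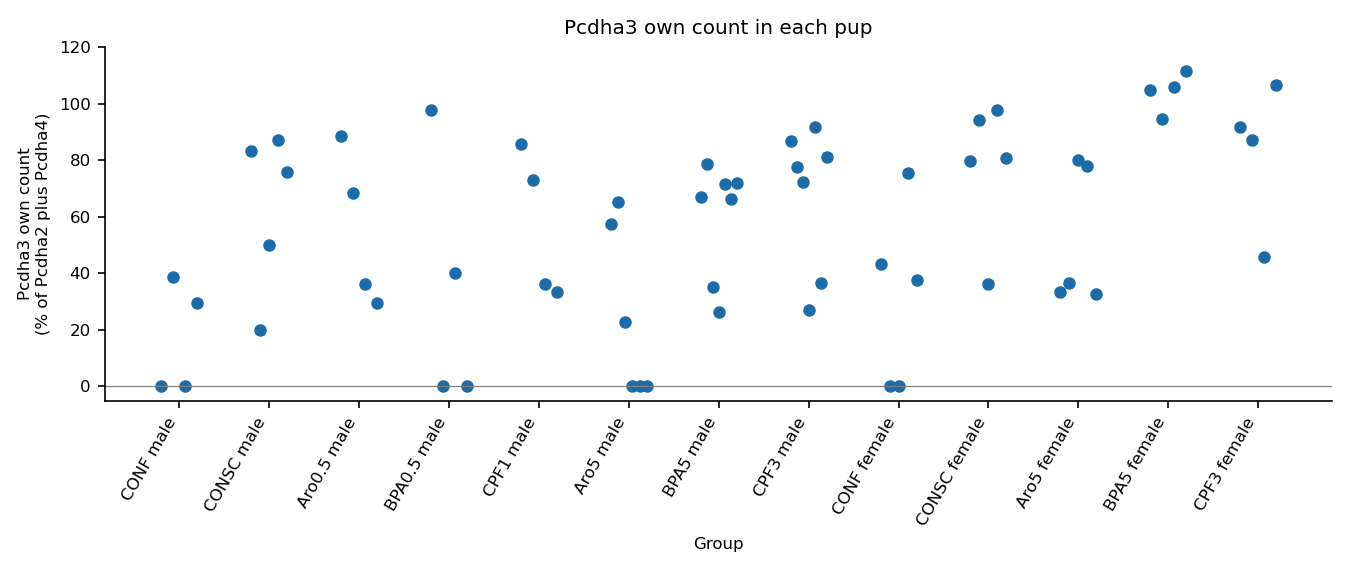
The own count of Pcdha3 in each pup is plotted as a percentage of the summed own counts of Pcdha2 and Pcdha4, by group. Points of 9 pups lie at 0, in CONF, BPA0.5 and Aro5 males and CONF females, and the other 55 lie between 20.0% and 112%.

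The beta rows did not carry a common count, so each was read as the level of its gene. How reads that match several beta genes were counted is not given in the sources used here, which limits single members. Mean levels ran from 0.0514 CPM for Pcdhb1, with 0 to 10 counts per pup and 0 in 24 pups, to 16.4 CPM for Pcdhb17. Pcdhb19 and Pcdhb7 followed with 12.1 and 11.2 CPM. The spread between pups of a group differed among the members. It was 9.60% for Pcdhb19, 9.97% for Pcdhb12 and 10.3% for Pcdhb20, where counting error alone gives 6.46%, 6.97% and 7.52%. It was 47.0% for Pcdhb2, 37.9% for Pcdhb6, 25.7% for Pcdhb11, 22.4% for Pcdhb8 and 21.8% for Pcdhb10, where counting error gives 27.4%, 15.8%, 10.8%, 10.3% and 12.5%.

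The beta promoters carry a shared element, which is shown here because CTCF binds such elements and because the same genes are compared between pups and sexes below. The windows are RefSeq's for the build GRCr8, 250 bases before to 50 bases after the annotated start, and 30 of the 49 members had 31 of them, all on the plus strand of chromosome 18. The string GGTGGCGCTG, the 10-base string that most of the beta windows share, occurs in 14 of 15 beta windows on the gene strand and in 0.146% of all 33469 rat windows (0.221% on either strand). The string was picked from these windows, which are also among all windows, so the shares are a description without a test. It starts at positions -229 to -46 from the annotated start. Its centre CGCT occurs in 27 of the 31 protocadherin windows, against 44.6% of all windows on the gene strand and 60.9% on either strand. The stretches below show the element in 7 beta genes, with that CGCT in capitals. They are followed by the 100 bases before the start of Pcdhb1, the beta member of the lowest level, which hold neither. The whole window of Pcdhb1 lacks the string but holds CGCT farther out, at -180.
Pcdhb4 (chr18:29292208-29292247, GRCr8, plus strand): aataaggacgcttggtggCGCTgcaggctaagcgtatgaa
Pcdhb5 (chr18:29302401-29302440, GRCr8, plus strand): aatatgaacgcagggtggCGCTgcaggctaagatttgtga
Pcdhb7 (chr18:29328995-29329034, GRCr8, plus strand): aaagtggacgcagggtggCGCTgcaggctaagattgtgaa
Pcdhb8 (chr18:29339255-29339294, GRCr8, plus strand): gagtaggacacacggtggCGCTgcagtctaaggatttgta
Pcdhb10 (chr18:29391775-29391814, GRCr8, plus strand): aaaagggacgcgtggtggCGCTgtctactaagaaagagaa
Pcdhb19 (chr18:29478761-29478800, GRCr8, plus strand): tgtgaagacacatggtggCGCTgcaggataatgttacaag
Pcdhb20 (chr18:29485807-29485846, GRCr8, plus strand): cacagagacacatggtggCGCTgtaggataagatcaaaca
Pcdhb1 (chr18:29187748-29187847, GRCr8, plus strand): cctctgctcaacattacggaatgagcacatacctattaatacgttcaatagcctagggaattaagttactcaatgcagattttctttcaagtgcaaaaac

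Beta members varied together from pup to pup. Correlations were taken over 64 pups on deviations from the group means of log2(CPM + 0.5), for all 153 pairs of the 18 members, with 100000 permutations each. The points share library and dissection, and the part of reads that match several members was not tested. Of the pairs 121 were positive and 32 negative, and 51 positive and 6 negative ones had a permutation p under 0.05 after Benjamini-Hochberg adjustment over the 153 pairs. The highest value was found for Pcdhb8 and Pcdhb11 (r = 0.724, rho = 0.717, both permutation p = 1e-05, the smallest the permutations can give). Without the 2 pups farthest from the median of Pcdhb8, r was 0.720. With 1 pup from each of 44 litters it was 0.765, and it was 0.823 in 26 pups of title form A and 0.646 in 25 pups of form B. Pcdhb8 and Pcdhb10 followed (r = 0.678, rho = 0.619), and Pcdhb10 and Pcdhb11 reached r = 0.591 and rho = 0.606. The lowest value was found for Pcdhb6 and Pcdhb8 (r = -0.521, rho = -0.541), and it was -0.589 in pups of form A and -0.479 in pups of form B. Pcdhb6 was also negatively correlated with Pcdhb10 (r = -0.407, rho = -0.436, permutation p of r adjusted over the 153 pairs = 0.00475) and with Pcdhb11 (r = -0.399, rho = -0.384, permutation p of r adjusted = 0.00501).

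The same genes were compared between the routes of the control males, a difference between groups that those correlations leave out. Pcdhb6 stood at 2.21, 2.48, 3.09 and 4.21 CPM in the 4 CONF males and at 0.835, 1.52, 1.61, 1.61 and 2.00 CPM in the 5 CONSC males. Pcdhb8 stood at 1.71, 3.01, 3.07 and 3.54 CPM in CONF and at 3.28, 4.00, 4.95, 6.37 and 6.495 CPM in CONSC males, and Pcdhb10 at 1.30, 1.86, 1.96 and 2.30 CPM against 2.31, 3.396, 3.43, 3.55 and 3.66 CPM. Pcdhb11 stood at 1.79, 2.39, 3.14 and 3.36 CPM in CONF and at 2.01, 3.09, 4.35, 5.10 and 5.38 CPM in CONSC males. The routes did not overlap for Pcdhb6 and Pcdhb10 and overlapped for Pcdhb8 and Pcdhb11. None of the 47 members tested was called between CONF and CONSC males, where 0.013% of all 15387 genes were (quasi-likelihood test of edgeR, adjusted p under 0.05 over all genes, as throughout). At an unadjusted p under 0.05 there were 4 members, 1 higher and 3 lower in CONF, where 0.988% of all genes passed. Pcdhb6 had a log2 difference of 1.02 ± 0.26 (SE; edgeR, Benjamini-Hochberg adjusted p = 1.00). In females none of 48 members was called between the routes (0% of 16618 genes), and 3 members, all higher in CONF, had an unadjusted p under 0.05, where 4.29% of all genes did. CONF and CONSC pups were combined as controls below, as the study did.

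Among the gamma members with own reads, Pcdhga7 and Pcdhga10 had means of 15.7 and 10.3 CPM. Their group means ranged from 12.2 and 8.26 CPM in Aro0.5 males to 18.1 CPM in CPF3 females for Pcdhga7 and 12.4 CPM in Aro5 males for Pcdhga10. The 10-base string that most of the gamma windows share, GCTGTTCACC, overlaps the CGCT element by its first 3 letters and occurs in 7 of 15 gamma windows on the gene strand, against 0.0568% of all windows (0.12% on either strand). This string was likewise picked from the windows in which it is counted. Of the C-type genes, the window of Pcdhgc3 lacks the string but holds CGCT 5 times, and that of Pcdhgc5 holds neither. Alternate members share these traits, since Pcdhga11 and Pcdhgb8 lack the string and hold 3 and 4 CGCT, and both windows of Pcdhga4 hold neither. Pcdhga7, Pcdhga10 and Pcdhga12 are shown with the element in capitals, beside the 100 bases before the start of both C-type genes.
Pcdhga7 (chr18:29794202-29794241, GRCr8, plus strand): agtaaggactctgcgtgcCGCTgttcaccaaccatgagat
Pcdhga10 (chr18:29825811-29825850, GRCr8, plus strand): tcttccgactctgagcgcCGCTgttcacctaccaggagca
Pcdhga12 (chr18:29843859-29843898, GRCr8, plus strand): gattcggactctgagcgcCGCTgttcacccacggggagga
Pcdhgc3 (chr18:29884145-29884244, GRCr8, plus strand): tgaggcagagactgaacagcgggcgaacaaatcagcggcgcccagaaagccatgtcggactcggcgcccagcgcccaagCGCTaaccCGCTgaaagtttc
Pcdhgc5 (chr18:29898330-29898429, GRCr8, plus strand): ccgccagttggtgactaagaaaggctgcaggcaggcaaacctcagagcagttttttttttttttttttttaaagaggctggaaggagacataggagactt

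The levels of the clusters were linked across pups. On deviations from the group means, pups with a high alpha shared count had a low gamma shared count (r = -0.773, rho = -0.723, both permutation p = 1e-05 and adjusted p = 3e-05 over the 15 pairs computed, n = 64). Without the 2 pups farthest from the median, r was -0.728, with 1 pup per litter -0.796 (n = 44), within form A -0.836 (n = 26) and within form B -0.827 (n = 25). Pcdhgc5 transcripts also carry the gamma constant exons, so that the value for Pcdhgc5 and the gamma shared count (r = 0.852, rho = 0.831) is a description without a test. Pcdhgc5 ran against the alpha shared count (r = -0.678, rho = -0.644, both permutation p = 1e-05, adjusted p = 3e-05). Both held within form A (r = 0.768 and -0.656) and within form B (r = 0.933 and -0.829), and without the 2 farthest pups (r = 0.824 and -0.631). As a description without a test, since both are sums over members, the summed own alpha counts and the summed beta level had r = 0.875 (rho = 0.862). All of these levels are shares of the same library total. The 2 libraries of CONF male N2-2y show how far such levels can move within 1 pup. Its form A library had an alpha shared count of 372.7 CPM, a gamma shared count of 576.3 CPM and 104.1 CPM of Pcdhgc5, and its form B library had 306.7, 672.5 and 170.6 CPM. For CONF female N4-3x the values were 286.8, 607.4 and 178.4 CPM in form A and 283.5, 651.4 and 199.6 CPM in form B.

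Treated pups were compared with the controls of their sex to find changes by the chemicals. In high-dose males no member was called. Of 48 members tested among 16393 genes, none had an adjusted p under 0.05 with Aro5, BPA5 or CPF3, where 0.195%, 0.189% and 0.159% of all genes did. At an unadjusted p under 0.05 there were 6 higher and no lower members with Aro5, where 11.8% of all genes passed, 1 higher with BPA5 (9.1% of all genes) and 5 higher and 1 lower with CPF3 (12.6% of all genes). All of these were beta members, and Pcdhb11 is counted in all 3 comparisons. The smallest p in each comparison was that of Pcdhb11. It ranged from 1.79 CPM through a median of 3.14 CPM to 5.38 CPM in the 9 control males, from 3.23 through 5.45 to 6.42 CPM in Aro5, from 3.59 through 4.403 to 5.76 CPM in BPA5 and from 3.58 through 5.06 to 7.35 CPM in CPF3 males. Treated and control pups overlapped in each case. The log2 fold changes were 0.60 ± 0.19 with Aro5, 0.43 ± 0.19 with BPA5 and 0.61 ± 0.19 with CPF3 (SE; edgeR, Benjamini-Hochberg adjusted p = 0.235, 0.523 and 0.233). The 3 comparisons share the control males. When pups with a dissection time outside the window from 10.30 to 13.20 h, 11 of 64, were left out, 3 members were called with Aro5 and 2 with CPF3. This left 6 of 9 control males, 4 CONF and 2 CONSC, beside 4 of 6 Aro5 and all 7 CPF3 males. The 3 CONSC males it removed were the highest control males for both Pcdhb11 (5.38, 4.35 and 5.10 CPM) and Pcdhb8 (6.37, 4.95 and 6.495 CPM). Pcdhb11 then had log2 fold changes of 1.07 and 0.97 (edgeR, Benjamini-Hochberg adjusted p = 0.0175 and 0.0211) and Pcdhb8 of 0.77 and 0.80 (adjusted p = 0.0267 and 0.0481), and Pcdhb22 was called with Aro5 (0.59; adjusted p = 0.0377). Over all 38 alternatives, the log2 fold change with CPF3 ranged from 0.11 to 0.85 for Pcdhb8 and from 0.39 to 0.97 for Pcdhb11. DESeq2 called no member in any of the 9 treated groups. The alpha and gamma shared counts changed by 0.09 ± 0.08 and -0.01 ± 0.07 with Aro5 (log2 ± SE; edgeR, Benjamini-Hochberg adjusted p = 0.683 and 0.985). Pcdhgc5 differed by 0.08 ± 0.11, 0.11 ± 0.11 and 0.14 ± 0.11 on the log2 scale with Aro5, BPA5 and CPF3 (SE; edgeR, Benjamini-Hochberg adjusted p = 0.839, 0.735 and 0.595).

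On resolved counts, more members had an unadjusted p under 0.05 with Aro5 than with BPA5 or CPF3 in males, though again none of 46 was called. With Aro5 19 members were higher and none lower at that level, where 11.8% of all genes passed, and 12 of the 19 were alpha genes. All alpha own counts of a pup are taken above the same lowest row, so these 12 are not independent results. Title form cannot be separated from Aro5 here, since every Aro5 male has form B and 9 of 10 control male libraries have form A. Aro5 males 120-1y and 120-2y are littermates. The median log2 fold change was 0.74 over 14 alpha members, 0.18 over 17 beta members and 0.18 over 15 gamma members, against -0.00 over all genes. Pcdha5 had a mean of 3.30 ± 1.01 CPM in Aro5 males (SD, n = 6; 1.52 to 4.26) and 1.65 ± 0.72 CPM in control males (SD, n = 9; 0.84 to 3.21). These groups overlapped, and the log2 fold change was 0.95 ± 0.25 (SE; edgeR, Benjamini-Hochberg adjusted p = 0.14). For Pcdhac2 the own levels were 11.7, 22.9, 24.7, 26.1, 27.0 and 29.3 CPM in Aro5 males against 8.15 to 21.8 CPM in control males, with 1 treated pup inside the control range. Its log2 fold change was 0.69 ± 0.19 with Aro5, 0.43 ± 0.19 with BPA5 and 0.51 ± 0.19 with CPF3 (SE; edgeR, Benjamini-Hochberg adjusted p = 0.178, 0.522 and 0.306). With BPA5 4 members were higher and none lower at an unadjusted p under 0.05 (9.11% of all genes passed), and with CPF3 8 were higher and 4 lower (12.6% of all genes). Beside these values, the 4 neocortex markers had a median log2 fold change of 0.64 with Aro5, 0.25 with BPA5 and 0.45 with CPF3, and 3, 2 and 3 of them an unadjusted p under 0.05. The summed thalamus markers averaged 522.0 CPM in Aro5 males and 717.7 CPM in control males, and the hippocampus markers 122.4 and 153.9 CPM, with no marker of either list at an unadjusted p under 0.05 with Aro5. The part of these shares of tissue in the protocadherin values was not tested.

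In low-dose males no member was called either. Of 48 members among 16139 genes, none had an adjusted p under 0.05 with Aro0.5, BPA0.5 or CPF1, where 0.124%, 0.0434% and 0% of all genes did. With Aro0.5 13 members were higher and 3 lower at an unadjusted p under 0.05, where 18.5% of all genes passed, but the 13 were the gamma rows that share 1 count. The gamma shared count was 708 ± 18.9 CPM in Aro0.5 males (SD, n = 4) and 655.7 ± 40.9 CPM in control males (SD, n = 9), with a log2 fold change of 0.18 ± 0.07 (SE; edgeR, Benjamini-Hochberg adjusted p = 0.195). Pcdhgb5, which does not share it, stood at 3.04, 3.39, 3.78 and 4.63 CPM in Aro0.5 males, within the range of 3.28 to 7.10 CPM of control males but for 1 pup. Its log2 fold change was -0.48 ± 0.17 with Aro0.5 and -0.40 ± 0.17 with BPA0.5 (SE; edgeR, Benjamini-Hochberg adjusted p = 0.163 and 0.539). With BPA0.5 no member was higher and 4 were lower at an unadjusted p under 0.05 (8.57% of all genes), and with CPF1 1 was lower (2% of all genes). That 1 was Pcdhb6, with 0.806, 0.982, 1.25 and 1.64 CPM in CPF1 and 0.835 to 4.21 CPM in control males (log2 fold change -0.92 ± 0.41, SE; edgeR, Benjamini-Hochberg adjusted p = 0.997).

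On resolved counts, the estimates of Aro0.5 males lay mostly on the other side of 0 than those of Aro5 males. The Aro5 males also differ from 9 of 10 control male libraries in title form. With Aro0.5 none of 45 members was higher and 20 were lower at an unadjusted p under 0.05, where 18.5% of all genes passed. The 20 were 9 of 13 alpha, 1 of 17 beta and 10 of 15 gamma members, and the median log2 fold changes were -0.92, -0.20 and -0.46. Own counts within the alpha or the gamma cluster share 1 subtracted row per pup, so these members are not independent results. The smallest p was that of Pcdhgb7, with a log2 fold change of -0.70 ± 0.16 (SE; edgeR, Benjamini-Hochberg adjusted p = 0.0957). Pcdhgc3 had own levels of 51.8, 70.0, 71.2 and 72.6 CPM in Aro0.5 males and 55.6, 65.8, 69.1 and 76.5 CPM in BPA0.5 males. The control males stood at 74.6 to 97.9 CPM, above every Aro0.5 pup and above all but 1 BPA0.5 pup. Its log2 fold change was -0.27 ± 0.09 with Aro0.5 and -0.30 ± 0.09 with BPA0.5 (SE; edgeR, Benjamini-Hochberg adjusted p = 0.144 and 0.349), and -0.03 ± 0.09 with CPF1 (edgeR, Benjamini-Hochberg adjusted p = 0.997). The neocortex markers had a median log2 fold change of -0.30 with Aro0.5 and -0.36 with BPA0.5, and 1 and 1 of the 4 an unadjusted p under 0.05. The thalamus markers averaged 1059 CPM in Aro0.5 males (724.7 to 1270 CPM) and 717.7 CPM in control males (464.6 to 1274 CPM), with a median log2 fold change of 0.52 and 3 of 5 rows, Tcf7l2 being listed in 2, at an unadjusted p under 0.05, and 712.7 CPM in BPA0.5 males. The part of these shares of tissue in the values was not tested. The Aro0.5 and BPA0.5 males and 9 of 10 libraries of the control males have title form A, so form does not separate these groups. With BPA0.5 8 members were lower and none higher (8.59% of all genes passed), and with CPF1 4 were lower and none higher (2.01% of all genes).

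**Figure D4:**
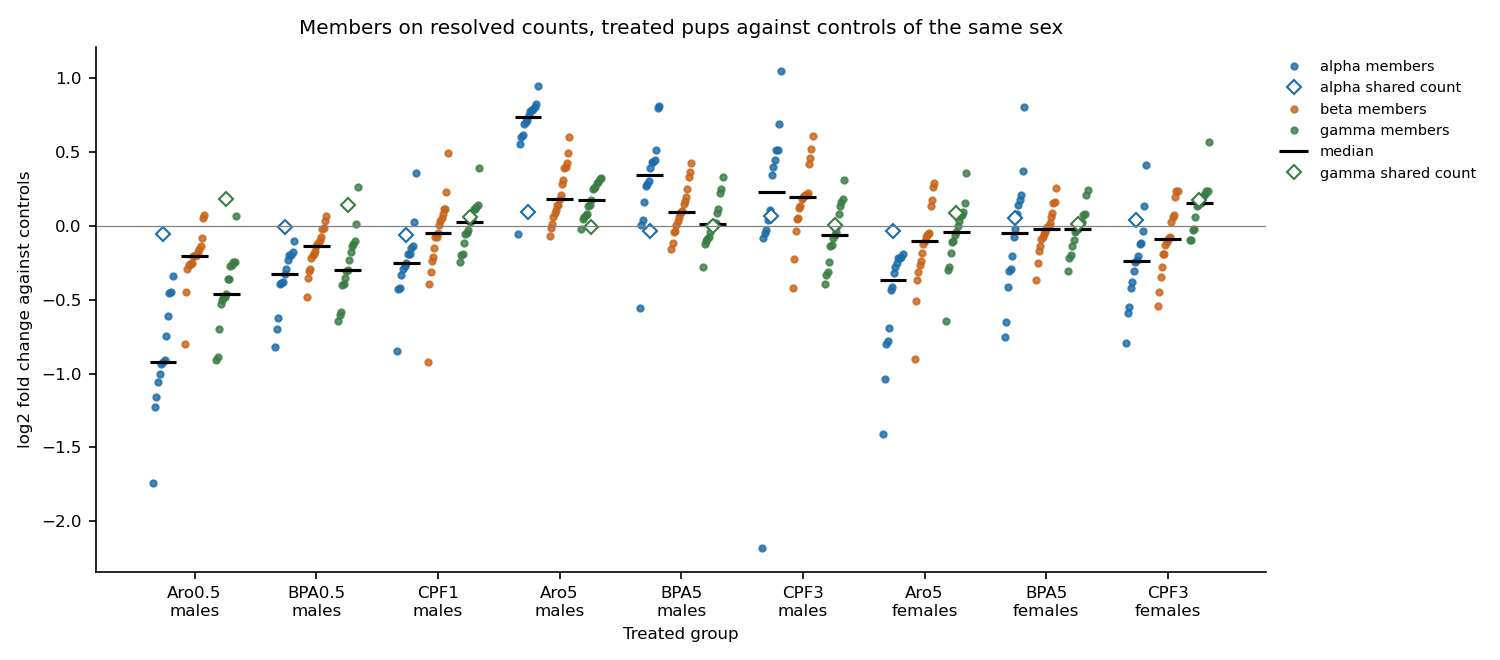
The log2 fold changes on resolved counts of the alpha, beta and gamma members are plotted for the 9 treated groups against controls of the same sex, with black bars at the median of each cluster and open diamonds for the shared counts. Most alpha members lie above 0 in Aro5 males (median 0.74) and all 13 tested lie below 0 in Aro0.5 males (median -0.92), while no member passed the adjusted threshold in any of the 9 groups.

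In females no member of 48 and no gene of 16992 was called with Aro5, BPA5 or CPF3 (0% of all genes each) by edgeR's test. At an unadjusted p under 0.05, 1 member was higher and 4 lower with Aro5 (3.23% of all genes), 1 was lower with BPA5 (4.08% of all genes) and 14 were higher and 4 lower with CPF3 (8.79% of all genes). DESeq2 called no member and 0, 1 and 0 genes in these comparisons. Of the 14 higher members with CPF3, 13 were the gamma rows that share 1 count, and the other was Pcdhgc5. Pcdhb19 had the smallest p of the members in all 3 comparisons. It stood at 9.67, 9.78, 10.0, 10.1 and 11.1 CPM in Aro5, at 10.7, 10.9, 11.0 and 11.7 CPM in BPA5 and at 9.78, 10.0, 10.6 and 10.8 CPM in CPF3 females, against 11.1 to 15.5 CPM in the 10 control females. The CPF3 pups lay below every control, and Aro5 and BPA5 pups overlapped the lowest controls. The log2 fold changes were -0.37 ± 0.07, -0.25 ± 0.08 and -0.34 ± 0.08 (SE; edgeR, Benjamini-Hochberg adjusted p = 0.695, 0.925 and 0.441), and the 3 comparisons share the control females. Pcdhgc5 differed by 0.15 ± 0.07, 0.08 ± 0.07 and 0.21 ± 0.07 on the log2 scale (SE; edgeR, Benjamini-Hochberg adjusted p = 0.999, 0.925 and 0.465). On resolved counts of 46 members, Aro5 gave 1 higher and 10 lower at an unadjusted p under 0.05 (3.27% of all genes), BPA5 none and 2 (4.09%), and CPF3 1 and 6 (8.73%). The title forms of the high-dose female libraries were not assigned.

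The difference between the responses of males and females was tested with an interaction term over 52 control and high-dose pups, because the study compared the sexes. No member was called for Aro5, BPA5 or CPF3, where 0.0984%, 0.0405% and 0.0463% of 17282 genes were. At an unadjusted p under 0.05 the male response was the higher one for 8 members with Aro5 (8.92% of all genes passed), for none with BPA5 (2.78%) and for 4 with CPF3 (5.6%), all of them beta members. For Pcdhb19 the difference was 0.36 ± 0.10 on the log2 scale with Aro5 and 0.31 ± 0.10 with CPF3 (SE; edgeR, Benjamini-Hochberg adjusted p = 0.249 and 0.79). On resolved counts the male response to Aro5 was the higher one for 23 of 47 members, 12 of them alpha genes, where 9% of all genes passed. These 12 again share the subtracted row of each pup and are not independent results. The smallest p was that of Pcdha12, with a difference of 1.54 ± 0.39 on the log2 scale (SE; edgeR, Benjamini-Hochberg adjusted p = 0.136).

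Control males and control females differed in 5 of 48 members, all lower in males (edgeR, Benjamini-Hochberg adjusted p under 0.05), where 30.9% of all 15763 genes were called. At an unadjusted p under 0.05 there were 7, again all lower in males, where 40.8% of all genes passed. Pcdhgc5 ranged from 119 through a median of 146 to 161 CPM in the 9 males and from 157 through 189 to 208 CPM in the 10 females. With the libraries of each pup summed, the sexes overlapped between 157 and 161 CPM. Taken alone, the form B library of CONF male N2-2y had 170.6 CPM, inside the female range, and its form A library 104.1 CPM. The log2 difference between the sexes was -0.40 ± 0.06 (SE; edgeR, Benjamini-Hochberg adjusted p = 4.24e-05). Pcdhb5 had means of 6.83 ± 0.90 CPM in males and 8.82 ± 1.04 CPM in females (SD, n = 9 and 10; log2 -0.40 ± 0.09, SE; edgeR, Benjamini-Hochberg adjusted p = 0.00146). Pcdhb20 had 8.23 ± 1.08 and 9.89 ± 0.60 CPM (log2 -0.30 ± 0.08; edgeR, Benjamini-Hochberg adjusted p = 0.00408), and Pcdhb4 1.84 ± 0.44 and 2.38 ± 0.28 CPM (log2 -0.41 ± 0.13; edgeR, Benjamini-Hochberg adjusted p = 0.0187). The whole row of Pcdhgc3 differed by -0.13 ± 0.05 on the log2 scale (SE; edgeR, Benjamini-Hochberg adjusted p = 0.0461), a call that was lost under 19 of 26 alternatives. All 17 beta members tested had lower estimates in males, with a median log2 difference of -0.23 against 0.02 over all genes.

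On resolved counts, 10 of 45 members differed between the sexes, again all lower in males, where 30.9% of all genes were called. The study reports a lower mean RNA integrity for its male than for its female samples. The part of RNA integrity in the sex differences, on either kind of counts, was not tested. Pcdhgc3 had own levels of 84.1 ± 7.22 CPM in control males and 108 ± 14.0 CPM in control females (SD, n = 9 and 10; log2 -0.41 ± 0.08, SE; edgeR, Benjamini-Hochberg adjusted p = 0.000224). The males stood at 74.6 to 97.9 CPM and the females at 77.2 to 128.3 CPM, with 1 female, at 77.2 CPM, inside the male range. Of the alpha genes, Pcdhac2, Pcdha5, Pcdha6 and Pcdha13 differed by -0.55, -0.75, -0.63 and -0.74 on the log2 scale (edgeR, Benjamini-Hochberg adjusted p = 0.0467, 0.0199, 0.0329 and 0.00717), and Pcdhga12 by -0.55 (edgeR, Benjamini-Hochberg adjusted p = 0.00751). The other 4 were Pcdhgc5, Pcdhb4, Pcdhb5 and Pcdhb20. With litter as a replicate block 7 members were called, and Pcdhac2, Pcdha5 and Pcdha6 lost their calls (limma, Benjamini-Hochberg adjusted p = 0.158, 0.0771 and 0.122). Pcdhac2 lost its call under 16, Pcdha6 under 10 and Pcdha5 under 2 of 21 alternatives, and without CONF male N2-2y, the pup at 0 for Pcdha3 in both libraries, 17 members were called. The shared counts were not called, with 317.8 ± 25.6 CPM in males and 288.1 ± 16.6 CPM in females for alpha (log2 0.10 ± 0.05, SE; edgeR, Benjamini-Hochberg adjusted p = 0.136) and 655.7 ± 40.9 and 676.4 ± 54.6 CPM for gamma (log2 -0.08 ± 0.05; edgeR, Benjamini-Hochberg adjusted p = 0.234).

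Title form went along with the comparison of the sexes, since 9 of 10 male control libraries but only 5 of 11 female ones have form A. Within the control females, Pcdhgc5 averaged 172 ± 12.4 CPM in 5 libraries of form A and 201 ± 7.25 CPM in 6 libraries of form B (SD). It was the 1 member of 48 called between the forms, where 1.43% of all 16577 genes were (log2 B minus A 0.26 ± 0.06, SE; edgeR, Benjamini-Hochberg adjusted p = 0.0385), and the 2 libraries of pup N4-3x enter this test separately. When only libraries of form A were compared between the sexes, Pcdhgc5 remained the only member of 48 called, with a log2 difference of -0.30 ± 0.09 (SE; edgeR, Benjamini-Hochberg adjusted p = 0.0409), and 3 members were called on resolved counts. The summed neocortex markers averaged 175.5 CPM in control males and 222.2 CPM in control females, with overlapping ranges, and 1 of the 4 was called, lower in males.

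**Figure D5:**
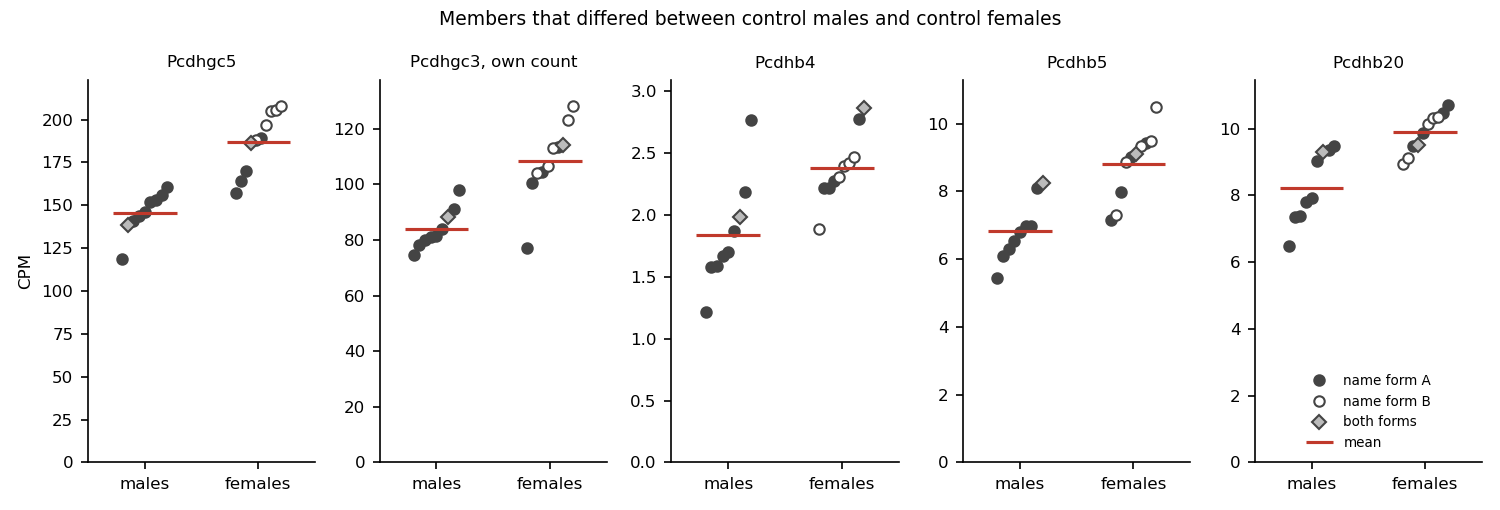
Pcdhgc5, the own count of Pcdhgc3, Pcdhb4, Pcdhb5 and Pcdhb20 are plotted in CPM for the 9 control males and 10 control females, filled for title form A, open for form B and as grey diamonds for the 2 pups sequenced in both forms, with red lines at the means. The female means lie above the male means in all 5 panels. For Pcdhgc5 the sexes overlap between 157 and 161 CPM, with the libraries of each pup summed.

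Genes that choose protocadherin promoters or act downstream of the proteins were followed as a list of 32, of which 30 were in the gene table and tested. None was called in any of the 9 treated groups. Ctcf averaged 74.9 CPM, Smchd1 57.3 CPM and Dnmt3b 4.86 CPM over the 64 pups. With Aro0.5, the treatment with the most members lower on resolved counts at an unadjusted p under 0.05, their log2 fold changes were -0.21 ± 0.08, -0.25 ± 0.10 and 0.03 ± 0.15 (SE; edgeR, Benjamini-Hochberg adjusted p = 0.202, 0.203 and 0.938), and 14 of the 30 had an unadjusted p under 0.05, where 18.5% of all genes did. Between control males and females 9 of the 30 were higher and 2 lower in males (30.9% of all genes were called). Higher were the cohesin genes Rad21, Smc3 and Stag1, the histone methyltransferase Setdb1, the kinase Ptk2, which protocadherins inhibit, and Marcks, Rac1, Nckap1 and Pdcd10, and lower were the maintenance methyltransferase Dnmt1 and Wasf1 of the WAVE complex, which binds protocadherin tails. Their log2 differences ranged from 0.15 for Rad21 to 0.33 for Marcks, and were -0.25 for Dnmt1 and -0.23 for Wasf1 (edgeR, Benjamini-Hochberg adjusted p under 0.05 each).

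The 10 non-clustered protocadherins, which are encoded elsewhere in the genome, were not called in any treated group either. Between the control sexes, where 30.9% of all genes were called, Pcdh19 (log2 0.23) and Pcdh18 (0.21) were higher and Pcdh1 (-0.77) and Pcdh8 (-0.40) lower in males (edgeR, Benjamini-Hochberg adjusted p under 0.05 each). Pcdh1 averaged 33.3 ± 3.43 CPM in control males and 55.2 ± 10.8 CPM in control females (SD, n = 9 and 10). Of the 42 cell type markers, none was called in a treated group, and 2 were higher and 9 lower in control males than in control females, where 30.9% of all genes were called. Those lower comprised 2 of 5 neuron, 1 of 4 neocortex, 1 of 4 tested hippocampus, 3 of 5 oligodendrocyte, 1 of 3 endothelium and 1 of 3 meninges markers. Their part in the protocadherin differences was not tested.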

How the data were processed

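Poly-A RNA libraries of 64 pups on PND 6 were sequenced. Per the labels and the study's methods, the authors made the deposited raw counts per gene by STAR alignment (Rnor_6.0) and featureCounts. Kallisto is also named, without a role. Versions, strandedness and the rule for reads overlapping several genes are not given in the sources used here. The sources differ on the sequencer and on the chlorpyrifos vehicle.

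The 2 libraries of each of 2 pups were summed. CPM was computed from the library totals, 10644138 to 86206550 counts, and the error between pups includes counting error. Treated pups were compared with CONF and CONSC pups of their sex by edgeR 4.0.16 (TMM scaling, filterByExpr, quasi-likelihood test) in R 4.3.3, with Benjamini-Hochberg adjustment over all genes tested and a threshold of 0.05. High-dose males, low-dose males and females were fitted separately with their controls. Pups were treated as independent, although some share a litter, so p-values may be too small. Own and resolved counts, and the comparisons of title forms, were chosen after seeing the data. DESeq2 1.42.0, limma 3.58.1 with litter as a block, other scalings and filters, dissection time and single pups left out were tried as alternatives. The pipeline was tested on simulated data.

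Members and gene lists were chosen with earlier results of these data known. Named were the C-type genes, the 3 members of highest mean per cluster, every member called and the member of smallest p in each comparison, and Ctcf, Smchd1, Dnmt3b and called genes among the partners. Other members were named after their values were seen. Litters come from the pup names in the labels. Littermates' correlation, estimated by limma, was -0.17 for the comparison of the sexes and -0.0061 for the interaction. A neocortex marker of the original list is not reported here, for a reason unrelated to its values.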

Additional observations from a re-analysis of the deposited data

Results flagged for a closer look

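Values of 10 levels in the 13 groups were examined for a pup far from the rest of its group, and 6 of 130 such tests stood out, where chance flags about 1 in 20. CONSC male 11-4y had an alpha shared count of 273 CPM, with the next pup at 323.5 CPM, and a gamma shared count of 730.5 CPM, with the next at 659.0 CPM. Pcdhgc3 had an own level of 51.8 CPM in Aro0.5 male 94-3y (next 69.97 CPM) and of 77.2 CPM in CONSC female 9-1x (next 104.3 CPM). The own level of Pcdhac2 was 11.7 CPM in Aro5 male 108-1y, against 22.9 CPM in the next pup. Pcdhb19 was 11.1 CPM in Aro5 female 120-3x, against 10.1 CPM in the next.

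Pcdha4 was the 1 of 153 combinations of member and treatment in which males and females lay on opposite sides of their controls. Its own level was 5.37 ± 1.30 CPM in Aro5 males (SD, n = 6), all above the control male mean of 3.06 CPM, and 3.22 ± 0.45 CPM in Aro5 females (SD, n = 5), all below the control female mean of 3.95 CPM. The difference of the responses was 1.08 on the log2 scale (edgeR, Benjamini-Hochberg adjusted p = 0.282), which did not pass the threshold. The gene was named after its values were seen.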

How the results depend on the processing

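No named member reversed under its alternatives, which were followed separately for deposited and for resolved counts. Between these kinds of counts the sign of whole clusters did change. For control males against control females, the median log2 difference of the alpha members was 0.10 on deposited and -0.44 on resolved counts. For Aro0.5 males against controls, that of the gamma members was 0.18 on deposited and -0.46 on resolved counts. Counts of members called in the 9 treated groups, between routes and in the interactions were 0 in every alternative run but 3. Pups within the dissection window gave 3 members with Aro5 and 2 with CPF3 in males, and controls of the same route gave 1 with Aro5 in males (Pcdhb10, log2 0.88, edgeR, Benjamini-Hochberg adjusted p = 0.038). The cause was not tested. Title form as a covariate gave 0 members in each male treatment, which for the high doses was close to fixed by the design, since form and dose nearly coincide. Each of these counts stayed between 0 and 0 with single pups left out. Between the control sexes the 5 members called became 10 with counts less the lowest member of the cluster, 10 with resolved counts, 1 in libraries of form A alone and 3 in those libraries with resolved counts. The last 2 fits hold fewer libraries. Without single pups the count was 4 to 6, and on resolved counts 8 to 17. The 17 came without CONF male N2-2y. With litter as a replicate block 4 members were called between the sexes, 7 on resolved counts and 0 in each interaction, and the block moved no count by over 1.5 times, though Pcdhgc3 and, on resolved counts, Pcdhac2, Pcdha5 and Pcdha6 lost their calls. The summed alpha level fell from 4640 to 50.2 CPM once the lowest row was subtracted, because the shared count stands in every row. Members with few own counts, such as Pcdhac1 and Pcdhb1, are limited by depth.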
